A study of Saccharomyces cerevisiae with 6 samples.

Results

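The genes of the DNA replication machinery of budding yeast were followed in R256C, an actin mutant strain, and in its wild-type counterpart, WT. The set was defined by name and held 49 genes of the 7126 gene rows in the count table: the replicative DNA polymerases alpha, delta and epsilon, the single-strand binding protein RPA, the clamp and its loader, the MCM2-7 helicase with CDC45 and GINS, the factors that load and fire it at origins, and the proteins that travel with the fork. The set was chosen with earlier results of these data known, so its share of falls is a description. Poly(A)-selected RNA was sequenced from 3 cultures of R256C, in which an arginine of actin is replaced by a cysteine, and from 3 cultures of WT. Both are labelled as Saccharomyces cerevisiae S288C and were grown without treatment in the rich medium YPD at 30 °C to an optical density of 0.9, in early exponential growth. The sources used here state neither how the mutation was made nor the number of isolates or the growth rate of either strain. The labels describe the cultures as biological replicates. An effect of the mutation and of anything else that sets these strains apart cannot be told apart.

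Replication is prepared in late mitosis and G1, when the origin recognition complex ORC, with CDC6 and TAH11 (Cdt1), loads rings of MCM2-7 onto DNA. In S phase, kinases and the firing factors SLD2, SLD3 and DPB11 bring CDC45 and GINS to each ring and turn it into the active helicase, after which polymerase alpha-primase lays down primers, polymerase epsilon extends the leading strand and polymerase delta the lagging strand. In budding yeast many of the genes for S-phase proteins are transcribed in late G1 by MBF, a complex of MBP1 and SWI6 that binds the MCB element (ACGCGT), while several MCM genes and CDC6 are transcribed earlier, around the end of mitosis, through the early cell cycle box (ECB), which MCM1 binds. A bulk RNA sample averages over all cycle stages, so fewer cells at a stage and less RNA per cell at that stage cannot be told apart.

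The 6 libraries held 8967232 to 16905818 reads in genes. Values are given as CPM, read counts scaled to a common library total after each total was multiplied by edgeR's TMM scaling factor. They are listed in the order of replicates 1, 2 and 3. WT replicate 2 stood apart from the other WT libraries, so calls that turn on it are given with and without it. Its scaling factor was 0.8995, against 0.995 to 1.04 in the other libraries. This low factor raised its CPM relative to library totals alone, so overlaps between the strains that rest on WT replicate 2 can depend on the scaling. For DPB4, RFC1 and RFC2, WT replicate 2 lay above every R256C library with TMM scaling but not with library totals alone. ACT1, the actin gene, averaged 1377 ± 25.2 CPM in R256C and 1738 ± 312 CPM in WT (SD, n = 3 each) and was not called (adjusted p = 0.124). Both strains had the expression of cells of mating type a, which does not show their ploidy. MFA1, MFA2, STE2 and BAR1 lay between 322 and 1687 CPM in every library. The alpha-cell genes MF(ALPHA)1, MF(ALPHA)2 and STE3 lay between 0.635 and 19.9 CPM.

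All 49 genes passed the filter on low counts. Of these, 26 fell in R256C, 1 rose and 22 were not called (edgeR's quasi-likelihood test, adjusted p under 0.05 with Benjamini-Hochberg over all 6337 genes tested). Over all tested genes 21.4% fell, 21.2% rose and 42.7% were called in either direction. The median log2 fold change was -0.29 for the replication genes and -0.012 for all tested genes. In 28 of them every R256C library lay below every WT library, against 27.3% of all tested genes, and in 4 every R256C library lay above, against 27.7%. By at least 2-fold, 7 fell (POL1, POL12, POL2, DPB2, RFA1, MRC1 and TOF1), against 2.82% of all tested genes; with offsets that remove each library's relation to gene length the 2-fold count was 4 (POL1, POL12, DPB2 and RFA1), against 2.59% of all tested genes, as POL2 (-0.77), MRC1 (-0.87) and TOF1 (-0.82) still fell but by less. The summed level of the set was 4096, 4152 and 4170 CPM in R256C replicates 1, 2 and 3, against 5533, 5376 and 5590 CPM in WT, and the ranges did not overlap. By complex, all members fell of RPA (3), of the clamp and Okazaki fragment group (3), of the fork stabilization and topoisomerase group (5) and of the helicase loading factors (2). Of MCM2-7, 1 of 6 fell, of the clamp loader RFC 1 of 5 and of ORC 2 of 6, while of the 3 firing factors SLD2 rose and the others were not called. With WT replicate 2 left out, 26 fell, of which 25 were among those called with all libraries, and 4 rose (PRI2, DPB4, RFC2 and SLD2). With scaling by library totals alone, 20 fell and 2 rose (MCM2 and SLD2), and the calls of POL3, RFC5, MCM6, ORC4, CDC6 and TAH11 were lost. With a filter of at least 10 CPM in 3 libraries, 23 fell and 2 rose (MCM2 and SLD2), and the calls of POL3, RFC5 and TAH11 were lost (adjusted p = 0.0526, 0.0556 and 0.0620 in that order). Over all tested genes, scaling by library totals gave 886 falls and 1639 rises, so that rises made up 64.9% of the calls in place of 49.8%.

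**Figure D1:**
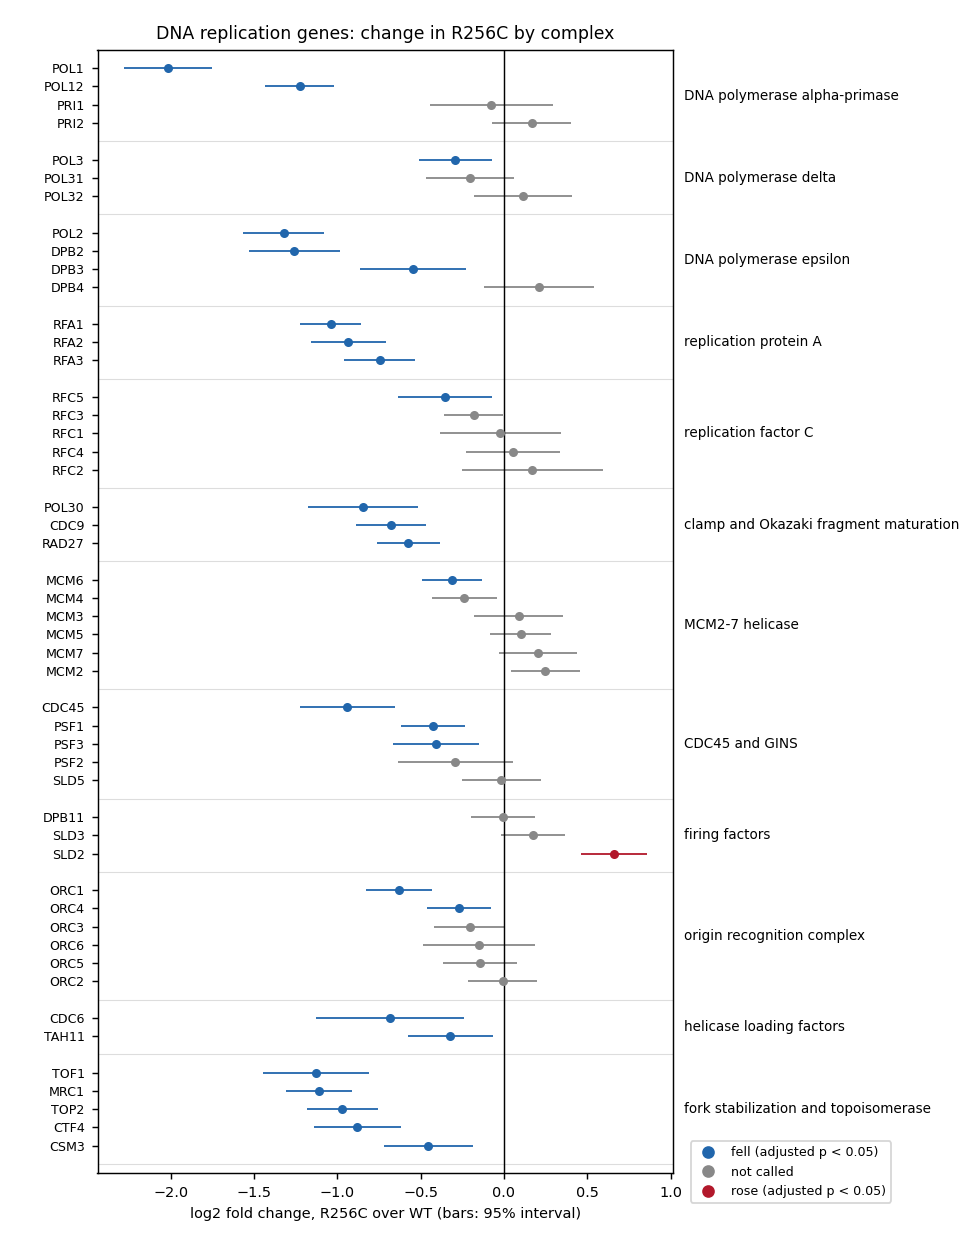
Log2 fold change of R256C over WT for the 49 replication genes, grouped by complex (points, edgeR estimates; bars, 95% intervals; n = 3 libraries per strain; blue fell, grey not called, red rose). The 7 falls of at least 2-fold lie in polymerases alpha and epsilon, RPA and the fork stabilization group, while 5 of 6 MCM2-7, 4 of 5 RFC and 4 of 6 ORC genes are not called and SLD2 is the one rise.

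In DNA polymerase alpha-primase, the polymerase genes fell and the primase genes were not called. POL1 (YNL102W, chromosome XIV, 430087 to 434493 on the plus strand; R64 coordinates throughout), the catalytic subunit that extends the RNA primer with DNA, was at 58.6, 62.5 and 58.3 CPM in R256C replicates 1, 2 and 3, against 264, 205 and 257 CPM in WT. No R256C library came near the lowest WT library, and POL1 fell (log2 fold change -2.02, SE 0.12, adjusted p = 1.9e-05). POL12 (YBL035C, chromosome II, 151493 to 153610 on the minus strand), the regulatory B subunit, averaged 63.98 ± 0.619 CPM in R256C and 149.8 ± 11.9 CPM in WT (SD, n = 3 each) and fell as well (log2 fold change -1.23, SE 0.090, adjusted p = 4.6e-05). PRI1 (YIR008C, chromosome IX, 373077 to 374306 on the minus strand), the catalytic primase subunit, had 57.4, 56.3 and 55.7 CPM in R256C, against 49.1, 76.6 and 52.6 CPM in WT. WT replicate 2 was the highest library and the other WT libraries were the lowest, so the strains overlapped (log2 fold change -0.08, 95% interval -0.45 to 0.29, adjusted p = 0.728). PRI2, the large primase subunit, had 84.9, 99.5 and 94.9 CPM in R256C, against 75.7, 91.7 and 81.4 CPM in WT. The groups overlapped there too (log2 fold change 0.17, interval -0.07 to 0.41, adjusted p = 0.233), and without WT replicate 2 PRI2 passed the test as a rise (log2 fold change 0.24, adjusted p = 0.0352).

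Per kb of coding sequence, the order of the subunits differed between the strains. In R256C, POL1 was at 13.6 ± 0.53 CPM per kb, POL12 at 30.2 ± 0.29, PRI1 at 45.9 ± 0.7 and PRI2 at 58.7 ± 4.7. In WT, POL1 was at 54.9 ± 7.4 CPM per kb, POL12 at 70.7 ± 5.6, PRI1 at 48.3 ± 12 and PRI2 at 52.3 ± 5.1 (SD, n = 3 each). Neighbours in the R256C order each stood apart by more than the sum of their SDs, and so did POL12 from POL1 in WT, whereas PRI1, PRI2 and POL1 in WT did not. The ratio of POL1 to PRI1 per length was 0.285, 0.309 and 0.292 in R256C replicates 1, 2 and 3, against 1.50, 0.745 and 1.36 in WT. POL1 thus had less mRNA per length than PRI1 in every R256C library and in WT replicate 2, and more in the other WT libraries.

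The sequences before the start codons of POL1, POL12 and PRI1 are shown because these genes of the same complex moved differently. Each window runs from 250 bases before to 50 bases after the first base of the start codon, 5′ to 3′ on the coding strand, from the RefSeq genome of build R64, and capitals mark MCB elements.
POL1 (chrXIV:429837-430136, plus strand): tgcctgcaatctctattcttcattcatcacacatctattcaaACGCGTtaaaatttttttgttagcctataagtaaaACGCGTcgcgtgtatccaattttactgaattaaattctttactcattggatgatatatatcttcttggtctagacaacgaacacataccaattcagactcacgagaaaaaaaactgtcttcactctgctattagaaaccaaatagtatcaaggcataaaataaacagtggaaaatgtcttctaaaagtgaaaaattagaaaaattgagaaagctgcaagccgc
POL12 (chrII:153561-153860, minus strand): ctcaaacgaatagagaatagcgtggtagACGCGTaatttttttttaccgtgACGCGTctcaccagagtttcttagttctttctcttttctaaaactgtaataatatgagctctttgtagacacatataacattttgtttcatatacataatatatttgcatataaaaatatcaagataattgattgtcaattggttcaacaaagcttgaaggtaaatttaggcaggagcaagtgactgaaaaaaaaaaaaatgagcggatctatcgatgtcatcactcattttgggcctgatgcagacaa
PRI1 (chrIX:374257-374556, minus strand): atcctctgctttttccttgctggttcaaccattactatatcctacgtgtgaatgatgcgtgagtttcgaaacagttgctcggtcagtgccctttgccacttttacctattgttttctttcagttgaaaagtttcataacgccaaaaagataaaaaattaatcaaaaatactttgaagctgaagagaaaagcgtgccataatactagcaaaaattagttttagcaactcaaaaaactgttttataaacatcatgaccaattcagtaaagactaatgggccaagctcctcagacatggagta
POL1 held MCB elements starting 208 and 173 bases before the start codon and POL12 held them at 222 and 199 bases, while PRI1 held none in this window. PRI2 held 1, at 165 bases. The neighbours of POL1 on the same strand moved the other way: MET4, 333 bp upstream, and AVT4, 505 bp downstream, rose (log2 fold changes 0.28 and 0.36, adjusted p = 0.0497 and 0.0061). STU1, a spindle gene 237 bp upstream of POL12 on the same strand, fell (log2 fold change -1.42, adjusted p = 6.2e-05).

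Of the 4 genes of the leading-strand polymerase, epsilon, 3 fell. POL2 (YNL262W, chromosome XIV, 148212 to 154880 on the plus strand), its catalytic subunit, had 96.4, 104 and 119 CPM in R256C, against 264, 250.04 and 286 CPM in WT, with no overlap, and fell (log2 fold change -1.32, SE 0.11, adjusted p = 6.8e-05). DPB2, the essential subunit that ties the polymerase to GINS, averaged 65.1 ± 4.91 CPM in R256C and 156 ± 21.03 CPM in WT and fell (log2 fold change -1.26, SE 0.12, adjusted p = 0.000139). DPB3 and DPB4 are small histone-fold subunits. DPB3 fell (log2 fold change -0.55, SE 0.14, adjusted p = 0.0139) on 87 to 209 reads per library, and its call was lost without R256C replicate 3 (adjusted p = 0.0598). DPB4 had 60.1, 62.03 and 60.5 CPM in R256C, against 46.9, 65.3 and 45.1 CPM in WT, where replicate 2 lay above every R256C library and the other WT libraries below. It was not called (log2 fold change 0.21, interval -0.12 to 0.54, adjusted p = 0.263), and without WT replicate 2 it passed as a rise (0.40, adjusted p = 0.00153). Per length, DPB4 was at 103 ± 1.7 CPM per kb in R256C and 88.7 ± 19 in WT, and DPB2 at 31.5 ± 2.4 in R256C and 75.3 ± 10 in WT. The gap between these subunits exceeded their SDs in R256C and not in WT. The ratio of POL2 to DPB4 per length was 0.142, 0.149 and 0.175 in R256C, against 0.498, 0.339 and 0.562 in WT, and the ranges did not overlap. ORC5 starts 219 bp downstream of POL2 on the same strand and was not called.

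Of the 3 genes of the lagging-strand polymerase, delta, 1 fell. POL3, its catalytic subunit, had 102, 97.6 and 115 CPM in R256C, against 125, 122 and 137 CPM in WT; the groups did not overlap, and POL3 fell (log2 fold change -0.29, SE 0.096, adjusted p = 0.0384). Its call was lost without R256C replicate 1, R256C replicate 2 or WT replicate 3 (adjusted p = 0.117, 0.139 and 0.151 in that order), and with offsets for gene length. POL31, the essential second subunit, had 57.9, 63.9 and 64.5 CPM in R256C, against 77.4, 76.4 and 60.6 CPM in WT, with WT replicate 3 among the R256C libraries (log2 fold change -0.20, interval -0.47 to 0.06, adjusted p = 0.185). POL32, the subunit that helps the polymerase work with the clamp, had 51.7, 49.4 and 47.1 CPM in R256C, against 37.9, 52.2 and 46.8 CPM in WT, and the groups overlapped (log2 fold change 0.11, interval -0.18 to 0.41, adjusted p = 0.501). The summed level of the 3 subunits was 211.1, 210.9 and 226 CPM in R256C, against 240.2, 250.2 and 245 CPM in WT, without overlap.

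**Figure D2:**
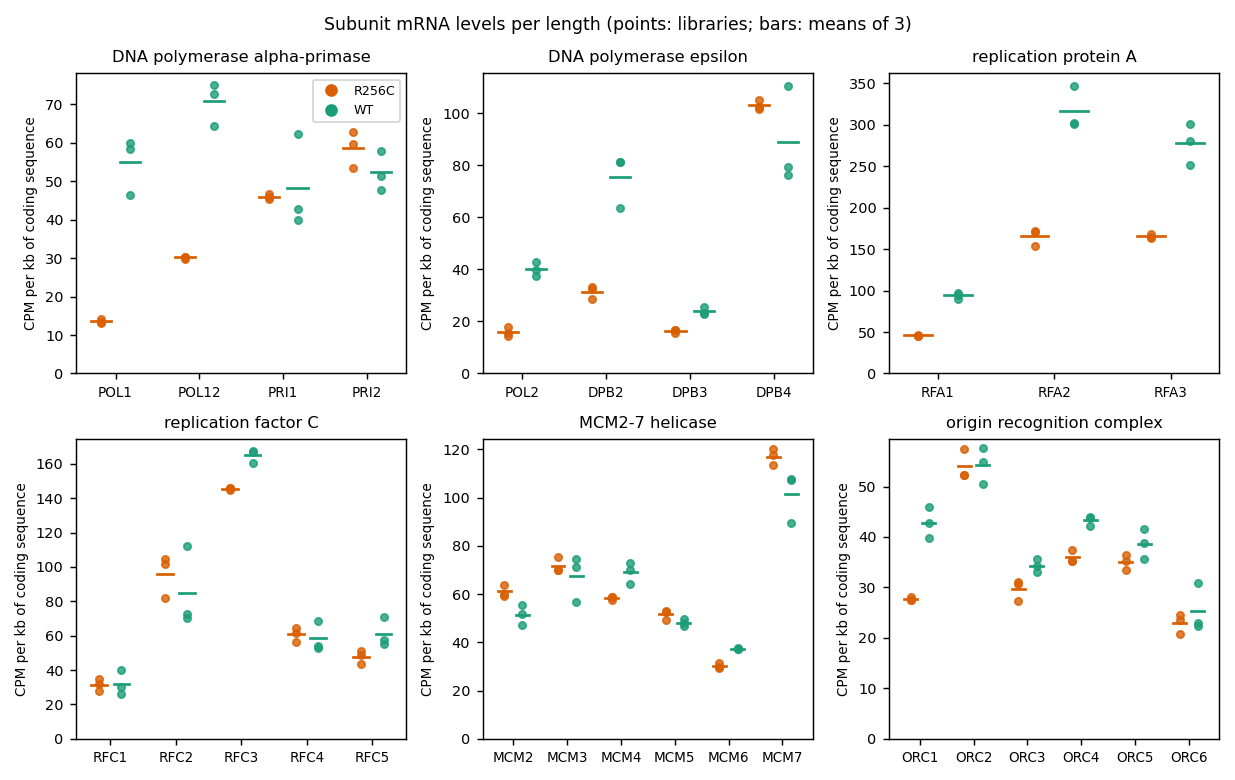
CPM per kb of coding sequence for the subunits of 6 complexes in R256C (orange, left of each pair) and WT (green); points are libraries, bars are means of 3. POL1, POL12, POL2, DPB2 and the RPA genes are lower in every R256C library, while the primase genes PRI1 and PRI2, DPB4 and most RFC and MCM genes overlap between strains or lie close.

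All 3 genes of RPA, the complex that coats single-stranded DNA at the fork, fell. RFA1 (YAR007C, chromosome I, 156754 to 158619 on the minus strand), the large DNA-binding subunit, had 87.3, 84.4 and 84.8 CPM in R256C, against 168, 178 and 182 CPM in WT (log2 fold change -1.04, SE 0.080, adjusted p = 5.5e-05). RFA3, the smallest subunit, had 60.3, 62.1 and 60.9 CPM in R256C, against 92.9, 111 and 104 CPM in WT (log2 fold change -0.75, SE 0.094, adjusted p = 0.000529). In both genes the R256C libraries lay close together and far below WT. RFA2, the middle subunit, fell by 0.94 on the log2 scale (adjusted p = 0.000222). Per length, RFA1 was at 45.8 ± 0.83 CPM per kb in R256C and 94.1 ± 3.9 in WT, the lowest of the complex in both strains. RFA2 was at 166 ± 10 in R256C and 317 ± 26 in WT, and RFA3 at 166 ± 2.4 in R256C and 278 ± 25 in WT, a gap within the sum of their SDs in either strain.

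The clamp and the enzymes that finish Okazaki fragments also fell. CDC9, the DNA ligase that seals the fragments, had 61.9, 66.7 and 66.6 CPM in R256C, against 113, 101 and 97.9 CPM in WT (log2 fold change -0.68, SE 0.093, adjusted p = 0.000765). RAD27, the flap nuclease that trims them, averaged 160.2 ± 4.89 CPM in R256C and 238 ± 9.40 CPM in WT and fell by 0.57 on the log2 scale (adjusted p = 0.00103). POL30, which encodes the sliding clamp PCNA, had 11.5, 10.8 and 10.3 CPM in R256C, against 21.4, 16.9 and 20.2 CPM in WT (log2 fold change -0.84, SE 0.14, adjusted p = 0.00222), and no R256C library reached a WT library. Its counts were low, 95 to 270 reads per library, for a gene of 777 coding bases. The table also has a row YBR089W, next in number to POL30 (YBR088C), with 0 to 3 reads per library and no coordinates in the annotation used here; whether the rows share reads was not tested. DPB3, RFC1, CDC9, CDC6, CTF4 and TOP2 have such a row too, with at most 22 reads in any library.

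The clamp loader RFC, which opens PCNA and sets it on DNA, had 1 gene of 5 that fell. RFC5 had 46.4, 52.1 and 54.4 CPM in R256C, against 58.6, 75.5 and 60.96 CPM in WT (log2 fold change -0.35, SE 0.12, adjusted p = 0.0466), and the ranges did not overlap. The call of RFC5 was lost without R256C replicate 1, R256C replicate 2, R256C replicate 3, WT replicate 2 or WT replicate 3 (adjusted p = 0.156, 0.120, 0.0863, 0.0520 and 0.0800 in that order), and its log2 fold change was -0.23 without WT replicate 2. RFC1, the large subunit, had 72.1, 83.1 and 89.7 CPM in R256C, against 67.8, 103 and 77.4 CPM in WT, where replicate 2 was the highest library and replicate 1 the lowest (log2 fold change -0.02, interval -0.38 to 0.34, adjusted p = 0.922). RFC2 had 87.02, 111 and 108 CPM in R256C, against 76.9, 119 and 74.9 CPM in WT (log2 fold change 0.17, interval -0.25 to 0.59, adjusted p = 0.489). Again WT replicate 2 exceeded every R256C library and the other WT libraries lay below, and without it RFC2 passed as a rise (0.42, adjusted p = 0.00314). RFC3 had 149, 149 and 148 CPM in R256C, against 172, 171 and 164 CPM in WT. All R256C libraries were lower, but RFC3 was not called (log2 fold change -0.18, interval -0.36 to -0.0047, adjusted p = 0.0899). RFC4 had 62.9, 54.6 and 59.9 CPM in R256C, against 51.4, 66.8 and 52.6 CPM in WT, and the groups overlapped (log2 fold change 0.05, interval -0.23 to 0.34, adjusted p = 0.754). RFC5 and POL30 are convergent neighbours, their coding sequences 160 bp apart.

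Of the 6 MCM2-7 helicase genes, 1 fell and 5 were not called, and their log2 fold changes lay between -0.31 and 0.25. MCM6, the one gene of the ring that fell, had 89.5, 96.4 and 90.4 CPM in R256C, against 114, 114 and 115 CPM in WT (log2 fold change -0.31, SE 0.079, adjusted p = 0.0137), and its call was lost without R256C replicate 1, R256C replicate 3 or WT replicate 3 (adjusted p = 0.0542, 0.0678 and 0.0603 in that order). MCM4 had 165, 165 and 162 CPM in R256C, against 196, 179.9 and 204 CPM in WT. All R256C libraries were lower, yet MCM4 did not pass (log2 fold change -0.24, interval -0.43 to -0.04, adjusted p = 0.0527); it passed as a fall without WT replicate 2 (-0.29, adjusted p = 0.00459), with the DESeq2 Wald test (adjusted p = 0.0308) and with DESeq2 size factors (adjusted p = 0.0466). MCM2 had 155, 157 and 167 CPM in R256C, against 134, 123 and 145 CPM in WT, higher in every R256C library and not called (log2 fold change 0.25, interval 0.04 to 0.46, adjusted p = 0.0552). MCM7, the most abundant of the ring per length, had 288, 305 and 298 CPM in R256C, against 273, 228 and 273 CPM in WT, likewise higher in every R256C library and not called (log2 fold change 0.20, interval -0.03 to 0.44, adjusted p = 0.145). The remaining genes overlapped between strains. MCM3 had 220.3, 204 and 204 CPM in R256C, against 218, 165 and 207 CPM in WT (log2 fold change 0.09, interval -0.18 to 0.36, adjusted p = 0.564). MCM5 had 114, 123 and 123 CPM in R256C, against 109, 111 and 116 CPM in WT (log2 fold change 0.10, interval -0.08 to 0.28, adjusted p = 0.346). Summed over the ring, the level was 1032, 1050 and 1044 CPM in R256C, against 1044, 921 and 1061 CPM in WT. With offsets for gene length, MCM2 and MCM7 passed as rises (0.36 and 0.30, adjusted p = 0.00649 and 0.0192) and MCM6 was not called.

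The consensus of the early cell cycle box was searched on both strands of the same windows. Of the 49 genes, 5 held a match, MCM3, MCM5, MCM6, MCM7 and CDC6, which is 10.2% of them, against 0.383% of all 6006 protein-coding genes with a window. The matches are shown on the coding strand with 5 bases on either side, the match in capitals.
MCM3 (chrV:86747-86772, plus strand): ttactTTTCCTAAATGGGTAAaaact
MCM5 (chrXII:691396-691421, plus strand): gcgtgTTTCCCTTTTAGGAAAagtga
MCM6 (chrVII:121065-121090, minus strand): ttaaaTTTCCTTTTTAGGAAAagcgc
MCM7 (chrII:625554-625579, plus strand): ggaaaTTTCCTTATAAGGAAAataaa
CDC6 (chrX:69140-69165, plus strand): cggagTTTCCAGATCAGGAAAttacc
CDC6 (chrX:69156-69181, plus strand): ggaaaTTACCCACTTAGGAAAttgag
They begin 154 to 213 bases before the start codon, and CDC6 holds a pair. Of the 5 genes, MCM6 and CDC6 fell and the others were not called, and the median log2 fold change was 0.090. Over all tested protein-coding genes, 5 of 23 with a match fell (21.7%, median -0.086) and 22.8% of 5776 without one (median -0.033). With 500 bases before the start codon, 6 of the 49 held a match, of which 3 fell, with a median of -0.10.

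Of the 5 genes of CDC45 and GINS, which join the ring to make the active helicase, 3 fell. CDC45 (YLR103C, chromosome XII, 343989 to 345941 on the minus strand), which binds the ring as it fires, had 32.8, 35.9 and 36.4 CPM in R256C, against 63.8, 78.5 and 58.8 CPM in WT, without overlap (log2 fold change -0.94, SE 0.13, adjusted p = 0.000709). Of the 4 GINS genes, PSF1 fell by 0.43 (adjusted p = 0.00463) and PSF3 by 0.41 on the log2 scale. The call of PSF3 (adjusted p = 0.0192) was lost without R256C replicate 1, R256C replicate 2, R256C replicate 3 or WT replicate 3 (adjusted p = 0.0723, 0.0659, 0.0581 and 0.0693 in that order). PSF2 had 18.5, 21.7 and 19.97 CPM in R256C, against 20.01, 28.2 and 25.4 CPM in WT, where replicate 1 lay among the R256C libraries (log2 fold change -0.29, interval -0.64 to 0.05, adjusted p = 0.150). Without that WT library PSF2 passed as a fall (-0.42, adjusted p = 0.0329). SLD5 had 35.1, 37.04 and 39.1 CPM in R256C, against 40.7, 35.2 and 36.5 CPM in WT, and the strains overlapped (log2 fold change -0.02, interval -0.25 to 0.22, adjusted p = 0.909).

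The firing factors held the one rise. SLD2 (YKL108W, chromosome XI, 234426 to 235787 on the plus strand), a target of the S-phase cyclin-dependent kinase that then binds DPB11, had 136, 138 and 129 CPM in R256C, against 91.6, 81.4 and 81.9 CPM in WT (log2 fold change 0.66, SE 0.087, adjusted p = 0.000650). Every R256C library was above every WT library, and the rise was called under all 15 alternative settings (log2 fold change 0.58 to 0.75). The gene 534 bp upstream on the same strand is HAP4, the activator of respiratory genes, which averaged 741 ± 70.7 CPM in R256C and 107 ± 15.6 CPM in WT (SD, n = 3 each; log2 fold change 2.79, adjusted p = 1.6e-05); its part in the value of SLD2 was not tested. YKL107W, 353 bp downstream of SLD2, was not called (0.36, adjusted p = 0.133). SLD3, which recruits CDC45, had 111, 98.2 and 101 CPM in R256C, against 93.1, 89.8 and 92.01 CPM in WT, higher in every R256C library and not called (log2 fold change 0.17, interval -0.02 to 0.37, adjusted p = 0.129). DPB11, the scaffold that binds SLD2 and SLD3, had 94.995, 94.7 and 93.8 CPM in R256C, against 88.4, 101 and 95.1 CPM in WT, and its R256C values lay inside the WT range (log2 fold change -0.01, interval -0.20 to 0.19, adjusted p = 0.968). SLD2 is also the one gene with an MCB element that rose, so its window is shown, in the same form as that of POL1.
SLD2 (chrXI:234176-234475, plus strand): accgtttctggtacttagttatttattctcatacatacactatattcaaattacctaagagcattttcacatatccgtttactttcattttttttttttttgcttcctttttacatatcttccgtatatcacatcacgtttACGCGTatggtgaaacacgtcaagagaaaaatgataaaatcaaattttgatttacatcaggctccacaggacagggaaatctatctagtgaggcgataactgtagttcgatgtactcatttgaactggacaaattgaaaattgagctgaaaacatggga
Its MCB element starts 109 bases before the start codon.

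Of the 6 ORC genes, which mark origins, 2 fell, and so did both genes that help load the helicase there. ORC1, the largest ORC subunit and an ATPase, had 77.2, 75.6 and 75.5 CPM in R256C, against 118, 126 and 109 CPM in WT, with a clear gap between the strains (log2 fold change -0.63, SE 0.087, adjusted p = 0.000790). ORC4 fell (log2 fold change -0.27, SE 0.084, adjusted p = 0.0301), a call lost without R256C replicate 1, R256C replicate 2, R256C replicate 3 or WT replicate 3 (adjusted p = 0.0932, 0.104, 0.0763 and 0.107 in that order). ORC2 had 107, 97.3 and 97.3 CPM in R256C, against 102, 94.05 and 107 CPM in WT (log2 fold change -0.01, interval -0.21 to 0.20, adjusted p = 0.949). ORC3 had 56.9, 50.6 and 57.7 CPM in R256C, against 61.1, 63.3 and 66.01 CPM in WT (log2 fold change -0.21, interval -0.42 to 0.01, adjusted p = 0.107). Of these subunits, ORC3 was lower in every R256C library and ORC2 overlapped. ORC5 had 50.8, 48.1 and 52.5 CPM in R256C, against 51.3, 59.9 and 55.9 CPM in WT (log2 fold change -0.14, interval -0.37 to 0.08, adjusted p = 0.260). ORC6 had 30.7, 32.2 and 27.2 CPM in R256C, against 30.02, 40.4 and 29.4 CPM in WT (log2 fold change -0.15, interval -0.48 to 0.19, adjusted p = 0.448), and both overlapped between strains. Among the loading factors, CDC6 had 64.2, 50.7 and 49.9 CPM in R256C, against 108, 63.003 and 94.8 CPM in WT. WT replicate 2 lay below R256C replicate 1, so the groups overlapped, and CDC6 fell by the test (log2 fold change -0.69, SE 0.20, adjusted p = 0.0219). That call was lost without R256C replicate 2, R256C replicate 3 or WT replicate 3 (adjusted p = 0.0888, 0.0789 and 0.0696 in that order), and with scaling by library totals (adjusted p = 0.0644). TAH11, the yeast Cdt1 that escorts MCM2-7 to origins, had 154, 137 and 145 CPM in R256C, against 204, 157 and 184 CPM in WT (log2 fold change -0.32, SE 0.11, adjusted p = 0.0455), and its call was lost without R256C replicate 1, R256C replicate 2, R256C replicate 3, WT replicate 1 or WT replicate 3 (adjusted p = 0.0756, 0.148, 0.122, 0.117 and 0.121 in that order).

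All 5 genes of proteins that accompany the fork fell. MRC1 (YCL061C, chromosome III, 18816 to 22106 on the minus strand), which couples helicase and polymerase and relays the replication checkpoint, had 81.4, 81.8 and 74.1 CPM in R256C, against 172, 162 and 179 CPM in WT (log2 fold change -1.11, SE 0.087, adjusted p = 6.0e-05). TOF1 averaged 31.7 ± 4.24 CPM in R256C and 69.3 ± 9.02 CPM in WT and fell (log2 fold change -1.13, SE 0.14, adjusted p = 0.000486). Its partner CSM3, with which it forms the fork protection complex, had 29.4, 28.1 and 28.6 CPM in R256C, against 33.7, 43.01 and 41.1 CPM in WT (log2 fold change -0.45, SE 0.12, adjusted p = 0.0153). The ranges of CSM3 did not overlap, yet its call was lost without R256C replicate 2, R256C replicate 3 or WT replicate 3 (adjusted p = 0.0657, 0.0609 and 0.0646 in that order). CTF4, the hub that links the helicase to polymerase alpha, fell by 0.88 on the log2 scale (adjusted p = 0.000635), and TOP2, the topoisomerase that untangles replicated DNA, by 0.97 (adjusted p = 0.000140). The ratio of TOF1 to CSM3 per length was 0.235, 0.320 and 0.298 in R256C, against 0.543, 0.354 and 0.481 in WT, and the ranges did not overlap. Like the ratios of POL1 to PRI1 and POL2 to DPB4, it carries no offset for gene length. With such offsets the log2 fold change of TOF1 was -0.82, and the part of length in these ratios was not tested.

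**Figure D3:**
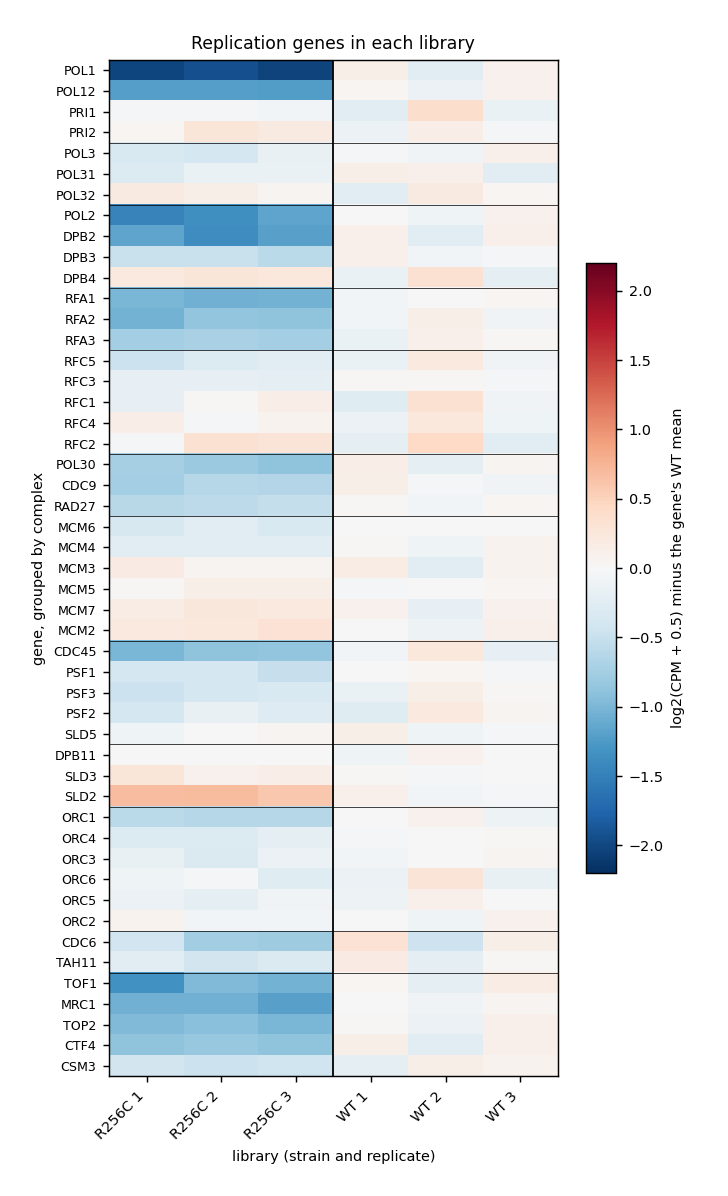
Log2(CPM + 0.5) of each replication gene in each library, as the difference from the gene's WT mean (rows, genes grouped by complex and sorted by change; columns, 3 R256C libraries left of 3 WT libraries). The R256C libraries resemble each other in the falls of POL1, POL12, POL2, DPB2, RPA and the fork genes, and WT replicate 2 departs from the other WT libraries most in PRI1, DPB4, RFC1, RFC2 and CDC6.

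The MCB element was present before 18 of the 26 genes that fell and 5 of the 23 others. ACGCGT, which reads the same on both strands, was present in the 300-base windows of 23 of the 49 genes (46.9%), against 184 of 6006 protein-coding genes (3.06%). Of the 23, 18 fell, 1 rose and 4 were not called, with a median log2 fold change of -0.84. Of the 26 without it, 8 fell and 18 were not called, with a median of -0.15. Over all tested protein-coding genes, 46.4% of 183 with the element fell (median -0.29) and 22.1% of 5616 without it (median -0.027). All 8 genes with 2 elements fell: POL1, POL12, RFA1, RFA2, RAD27, CDC45, MRC1 and TOF1, with a median of -1.07 and a range of -2.02 to -0.57. Of the 15 with 1 element, 10 fell, SLD2 rose and PRI2, POL31, POL32 and RFC4 were not called, with a median of -0.45. This split by number of elements covers the 49 genes alone and was chosen after their values were seen. The largest falls without an element were RFA3 (-0.75), ORC1 (-0.63) and DPB3 (-0.55). All 8 genes with 2 elements fell under each of the 15 alternative settings, while the falls without an element numbered 3 to 9. The related SCB element (CGCGAAA, both strands) is bound by the complex of SWI4 and SWI6. It was present in 7 of the 49 (14.3%), against 3.60% of all windows. Of these 7, 5 fell, while 42.7% of 211 tested protein-coding genes with the element fell and 22.1% of 5588 without it. In 4 genes both elements were present (POL32, DPB2, POL30 and CDC9), in 1 of them sharing bases, and all of these but POL32 fell. With an SCB element alone, DPB3 and PSF1 fell and MCM5 was not called. With 500 bases before the start codon in place of these windows, 25 genes held an MCB element, against 5.41% of all windows. A match of letters does not show that a factor binds there.

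**Figure D4:**
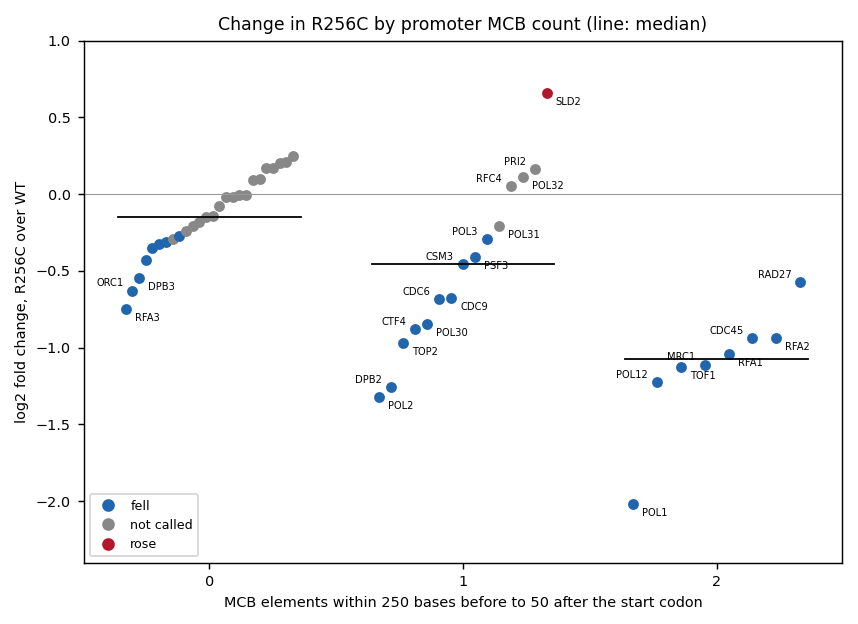
Log2 fold change of R256C over WT for the 49 replication genes by the number of MCB elements (ACGCGT) in their promoter windows (points, genes, spread sideways by rank; lines, medians; blue fell, grey not called, red rose). The medians are -0.15 with 0 elements, -0.45 with 1 and -1.07 with 2. The grouping was chosen after the values were seen and has no counterpart here for all tested genes.

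The relation to gene length differed along the range of lengths. The 7 replication genes of at least 3000 coding bases (POL1, POL2, POL3, MCM6, MRC1, TOF1 and TOP2) all fell, with a median log2 fold change of -1.11. Of all 498 tested protein-coding genes of that length, 48.0% fell, with a median of -0.29. Among the 11 members under 1000 bases 7 fell (median -0.43), against 17.5% of 2320 tested genes of that length. Between 1000 and 2000 bases 7 of 18 members fell (median -0.19), against 19.9% of 2183 tested genes, and between 2000 and 3000 bases 5 of 13 fell (median -0.021), against 30.6% of 798. The members' medians thus had no steady course with length, and the lowest belonged to the longest genes, a bin of 7. Across the 49 genes Spearman's rho between length and log2 fold change was -0.22, and across 5799 tested protein-coding genes -0.11; all points share the same libraries. With the offsets for gene length, 25 members fell and 3 rose. POL1 was then at -1.62, POL2 at -0.77 and TOP2 at -0.59, each still called, while POL3 (-0.05, adjusted p = 0.661) and MCM6 (-0.12, adjusted p = 0.249) were not. The part of length in the changes was not tested beyond this.

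**Figure D5:**
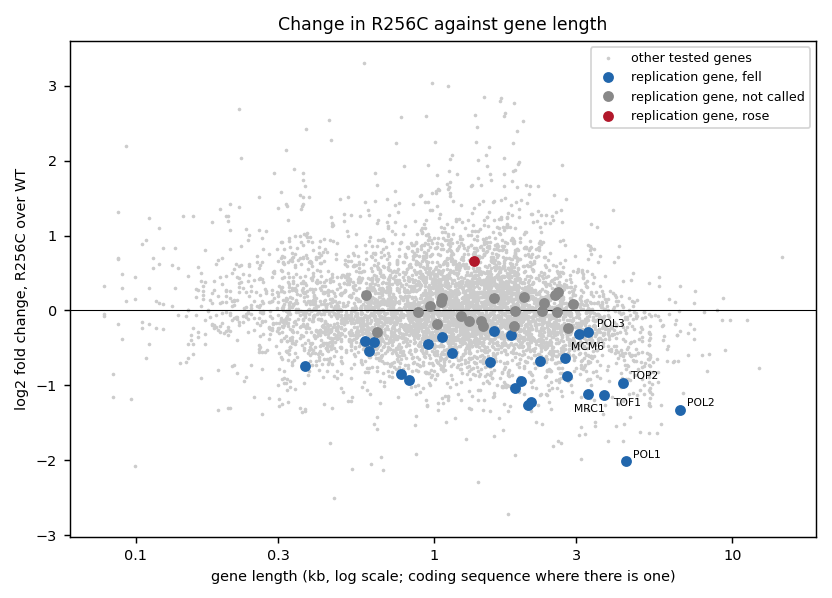
Log2 fold change of R256C over WT against gene length in kb (log axis) for the 49 replication genes (blue fell, grey not called, red rose) and the other tested genes with a length (light grey). The 7 replication genes of 3 kb and more are named, and POL1 and POL2 are the lowest of them at -2.02 and -1.32.

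A list of 36 other genes of replication, its nucleotide supply, its checkpoint and its transcription was followed beside the 49. This list too was chosen with earlier results of these data known. Among all tested genes 21.4% fell and 21.2% rose, with a median log2 fold change of -0.012. Of the 36, 18 fell, 2 rose and 16 were not called, with a median of -0.35. The smallest p-values belonged to FKH1 (-1.33), a forkhead factor that acts at early origins, FKH2 (-1.04), its relative, ASF1 (-1.02), a histone chaperone, and CTF18 (-1.26), the large subunit of an alternative clamp loader. CTF18 averaged 54.2 ± 4.93 CPM in R256C and 130.2 ± 7.31 CPM in WT (SD, n = 3 each; adjusted p = 5.6e-05). The rises were DCC1 (0.72, adjusted p = 0.0186), a partner of CTF18, and MSI1 (0.26, adjusted p = 0.0397), a subunit of the nucleosome assembly factor CAF-1. The other CAF-1 genes, RLF2 (-0.66) and CAC2 (-1.06), fell. Without WT replicate 2, 22 fell, the 18 and RNH201, PIF1, MEC1 and SWI6 (adjusted p = 0.00017, 0.0213, 0.0014 and 0.0313 in that order), and 4 rose, DCC1, MSI1, REV1 and MBP1 (adjusted p = 0.000116, 0.0402, 0.0272 and 0.0445 in that order). The number of falls was 14 with library totals alone and without R256C replicate 2, where RNH203, ELG1, TOP1 and RRM3 lost their calls. It was 15 without R256C replicate 3 or WT replicate 3, and 17 without R256C replicate 1 or WT replicate 1. The number of rises was 1 without R256C replicate 2 or R256C replicate 3, and 0 without R256C replicate 1 or WT replicate 3. Of the checkpoint kinase genes, RAD53 (-0.65) and DUN1 (-0.75) fell and MEC1 was not called (-0.30, adjusted p = 0.0626), while LCD1, the partner of MEC1, fell (-0.70). With offsets for gene length, MEC1 had the opposite sign and passed as a rise (0.29, adjusted p = 0.0231). The translesion polymerase genes REV1 (0.21), REV7 (-0.0051) and RAD30 (0.017) were not called, nor was REV3, with adjusted p between 0.0815 and 0.999; with offsets for gene length REV3 (0.39, adjusted p = 0.0141) and REV1 (0.38, adjusted p = 0.0106) passed as rises.

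The genes of the G1/S transcription factors are part of that list. SWI4, the DNA-binding subunit of SBF, averaged 37.9 ± 5.40 CPM in R256C and 94.9 ± 2.10 CPM in WT (SD, n = 3 each) and fell (log2 fold change -1.33, adjusted p = 9.4e-05). MBP1, the DNA-binding subunit of MBF, averaged 187 ± 11.3 CPM in R256C and 165 ± 11.9 CPM in WT and was not called (0.19, interval -0.028 to 0.40, adjusted p = 0.142) with all libraries. SWI6, which both complexes share, averaged 137 ± 9.82 CPM in R256C and 163 ± 5.005 CPM in WT and was not called with all libraries (-0.25, interval -0.45 to -0.047, adjusted p = 0.05002); both passed without WT replicate 2, MBP1 as a rise (0.22, adjusted p = 0.0445) and SWI6 as a fall (-0.22, adjusted p = 0.0313). SWI6 also passed as a fall with the DESeq2 Wald test, with DESeq2 size factors and with no filter on low counts. MBP1 also passed as a rise with library totals alone (0.28, adjusted p = 0.0469), where all tested genes shifted to a median of 0.087.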

How the data were processed

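The data are raw read counts per gene, deposited by the authors as 1 table with a column for each of the 6 libraries; per the labels' protocols the libraries were poly(A)-selected and stranded. Per the submitters' processing notes the build was R64 and the tools were HTSeq, TopHat and DESeq, without versions or roles, and the strand setting of the counting is not given in the sources used here. The table holds 7126 gene rows, of which 6048 matched the RefSeq annotation of R64 by systematic name, and 5 summary rows, which were left out; 0 columns belonged to no sample. The summary rows for reads outside genes and for ambiguous reads held 409926 to 600351 and 752426 to 1549587 reads per library.

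From the counts, edgeR 4.0.16 in R 4.3.3 filtered low genes (filterByExpr), scaled libraries by TMM and tested R256C over WT by its quasi-likelihood test on genotype alone, with Benjamini-Hochberg adjustment over 6337 genes and a threshold of 0.05. The p-values set the difference between the strains against the spread between these cultures. The common biological coefficient of variation was 0.133. CPM divides by the library totals after TMM scaling, and CPM per kb divides further by the annotated coding length. Neither CPM per kb nor the ratios between subunits carry offsets for gene length. Alternatives were DESeq2 1.42.0, limma 3.58.1 with voom, edgeR with library totals alone or DESeq2 size factors, a filter of at least 10 CPM in 3 libraries or none, each library left out, the replicate number as a block, and offsets from a smooth of each library's log2 ratio on gene length.

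The 49 genes and the list of 36 were chosen with earlier results of these data known. By the rule for named genes, values per library are given for the genes of each complex with the smallest and the largest p and for every gene not called or called higher; of the list of 36, the 4 smallest p-values and every rise were named, and the other genes named from it were chosen after their values were seen, as were the neighbouring genes, the grouping by number of MCB elements and the ratios between subunits.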

Additional observations from a re-analysis of the deposited data

How the results depend on the processing

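Of the 27 called replication genes, 18 kept their call under all 15 alternatives. The number that fell was 26 in the reported fit, 18 to 26 with 1 library left out and 20 to 27 under the other settings. Leaving out a library gave 1 to 4 rises among the 49, 0 to 4 among the 36 other genes, and 3 to 8 falls among those of the 49 without an MCB element, a grouping chosen after seeing the data. Of the 36, 14 to 22 fell with 1 library left out and 14 with library totals alone, against 18 in the reported fit. Among the 49, the count of falls of at least 2-fold, 7 in the reported fit, was 7 or 8 with 1 library left out. It was 6 with library totals alone, without RFA1, against 2.16% of all tested genes. With length offsets it was 4, with or without the replicate block. This count was followed over the settings after seeing the data. With library totals alone, 2 of the 49 rose, the median log2 fold change was -0.20, 5 of the 36 rose and 4 genes without an MCB element fell, and all tested genes shifted to a median of 0.087. Small values of genes that were not called changed sign. With library totals alone PRI1 was at 0.035, RFC1 at 0.088, SLD5 at 0.078, DPB11 at 0.095 and ORC2 at 0.085. With at least 10 CPM in 3 libraries 2 of the 49 rose, and RFC1 was at 0.0055, SLD5 at 0.0086, DPB11 at 0.020 and ORC2 at 0.017. With length offsets 3 of the 49 and 4 of the 36 rose, RFC1 was at 0.069 and DPB11 at 0.036. With 1 library left out, PRI1 ranged from -0.20 to 0.15, POL32 from -0.0066 to 0.23, RFC1 from -0.15 to 0.17, RFC4 from -0.020 to 0.18, MCM3 from -0.024 to 0.17, SLD5 from -0.064 to 0.046, DPB11 from -0.056 to 0.042, ORC2 from -0.059 to 0.037 and ORC6 from -0.23 to 0.020. The causes were not tested.

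The replicate numbers did not pair the libraries: the correlations of same-numbered deviations were -0.11, -0.068 and -0.069. With the replicate number as a block 25 of the 49 fell and 1 rose, ORC4 losing its call, and 1 of the 36 rose. The block with length offsets gave 24 falls and 4 rises among the 49, 4 rises among the 36, RFC1 at 0.097 and DPB11 at 0.040. Counts of 95 to 270 reads per library for POL30 and 87 to 209 for DPB3 limit the precision there. Both genes also have a row next in number without coordinates, and whether reads shared with such rows lowered their levels was not tested.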

Other observations

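Genes outside the replication set that carry an MCB element were also lower more often than genes without one. Of 160 tested genes with ACGCGT in the 300-base window that are not among the 49, 67 fell in R256C (41.9%) and 19 rose, with a median log2 fold change of -0.25. Of 5590 without it, 1231 fell (22.0%) and 1165 rose, with a median of -0.027. For the SCB element, 85 of 204 such genes fell (41.7%) and 18 rose, with a median of -0.23. These are descriptions of the same libraries, with no test of the difference.

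Among genes that supply thymidine nucleotides, CDC21, the thymidylate synthase, averaged 29.2 ± 2.37 CPM in R256C and 59.9 ± 6.05 CPM in WT (SD, n = 3 each) and fell (log2 fold change -1.04, adjusted p = 0.000276). DUT1, the dUTP pyrophosphatase, fell (-0.64, adjusted p = 0.0015), and CDC8, the thymidylate kinase, was not called (-0.20, adjusted p = 0.244). Of the primer removal genes, DNA2, a helicase and nuclease, fell (-0.61, adjusted p = 0.00166), as did RNH203, a subunit of RNase H2 (-0.44, adjusted p = 0.023). With offsets for gene length DNA2 fell by less (-0.20, adjusted p = 0.0486), and with the replicate block added its call was lost (adjusted p = 0.0882). RNH201, RNH202 and EXO1 were not called with all libraries. Without WT replicate 2, RNH201 passed as a fall (-0.53, adjusted p = 0.00017). The call of RNH203 was lost without R256C replicate 1, R256C replicate 2 or WT replicate 3 (adjusted p = 0.0867, 0.0878 and 0.0775 in that order). MCM10, which helps activate the helicase, fell (-0.78, adjusted p = 0.000772), and the genes of the kinase that phosphorylates the MCM ring, CDC7 (0.082, adjusted p = 0.528) and DBF4 (-0.21, adjusted p = 0.0783), were not called.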
